A study of Mus musculus with 21 samples.

Results

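Mural cells are the cells that wrap the outside of blood vessels: pericytes on capillaries, and smooth muscle cells on arteries, arterioles and veins. Values of 10 genes used as markers of these cells were followed, out of 24322 gene symbols in the deposited tables. They were listed by symbol as genes known from mural cells. No measured value enters the rule, but the list was chosen with earlier results of these data known. It holds the pericyte genes Vtn, Pdgfrb, Rgs5, Abcc9 and Kcnj8, the signalling and adhesion genes Rgs4 and Mcam, and the contractile genes Myl9, Acta2 and Tagln. All 10 symbols were listed in every table, with Tagln at 0 in 1 library, and all 10 passed the filter on low values in every comparison.

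The libraries came from Nestin-EGFP mice of the C57BL/6 strain, in which GFP-positive cells were sorted and their polyadenylated RNA was sequenced. Pregnant dams received methylcellulose, the control, or valproic acid (VPA), an antiepileptic drug that also inhibits histone deacetylases, at 300 mg/kg/day by mouth on embryonic days 12, 13 and 14. Offspring were sampled at embryonic day 15 (E15) from the forebrain, and at postnatal day 5 (P5) and 12 weeks of age from the hippocampal dentate gyrus. Each age has 3 control and 3 VPA libraries, and at 12 weeks there are 3 further libraries from VPA-exposed mice with voluntary running, which gives 7 groups and 21 libraries. There is no running group without VPA, and E15 differs from the later ages in tissue as well as age, so those cannot be told apart. The labels call the sorted cells neural stem/progenitor cells and do not say how many animals or litters went into a library, so the p-values measure the spread between these libraries only, which may be technical.

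Pericytes are recruited to growing capillaries by platelet-derived growth factor B, which endothelial cells release and which acts on the receptor encoded by Pdgfrb. They help to form and keep the blood-brain barrier. Smooth muscle cells share many of their genes but carry more of the actin-myosin machinery that narrows a vessel. Nestin, the filament protein whose regulatory sequence drives the EGFP reporter, is known from neural stem cells and is also made by some cells of vessel walls. Because these are bulk libraries, fewer mural cells and less RNA per cell cannot be told apart in any comparison below.

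Some of the 10 genes lie next to each other in the mouse genome (mm10, GENCODE M21). Rgs5 (ENSMUSG00000026678.10, chr1:169655501-169695813, plus strand) and Rgs4 (ENSMUSG00000038530.11, chr1:169741477-169747642, minus strand) both encode regulators that shorten G protein signals, and are 45663 bases apart with 0 protein-coding genes between them. Kcnj8 (ENSMUSG00000030247.9, chr6:142564837-142571614) and Abcc9 (ENSMUSG00000030249.15, chr6:142587862-142702315) encode the pore and the regulatory subunit of the vascular ATP-sensitive potassium channel, lie on the minus strand and are 16247 bases apart, also with 0 protein-coding genes between them. The bases before the start of these 4 genes are shown because the values below set the members of each pair against each other, and those of Myl9 (ENSMUSG00000067818.6, chr2:156775420-156781658, plus strand) because it alone of the contractile genes was called higher in controls at P5 than at E15. The sequences are from RefSeq (GRCm38.p6), run 5′ to 3′ on the strand of the gene and stop before the first base of the GENCODE gene. Capitals mark matches, on either strand, to the motifs searched.
Rgs5: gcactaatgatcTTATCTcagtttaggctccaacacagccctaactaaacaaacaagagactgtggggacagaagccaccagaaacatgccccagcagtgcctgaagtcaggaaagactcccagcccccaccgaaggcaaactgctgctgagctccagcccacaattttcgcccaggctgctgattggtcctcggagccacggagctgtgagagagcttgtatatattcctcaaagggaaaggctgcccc
Rgs4: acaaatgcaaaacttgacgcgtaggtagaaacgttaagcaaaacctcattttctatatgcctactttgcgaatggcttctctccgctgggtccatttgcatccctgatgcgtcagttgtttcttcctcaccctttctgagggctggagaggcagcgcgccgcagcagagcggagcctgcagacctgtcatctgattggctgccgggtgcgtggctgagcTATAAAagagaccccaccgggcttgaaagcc
Kcnj8: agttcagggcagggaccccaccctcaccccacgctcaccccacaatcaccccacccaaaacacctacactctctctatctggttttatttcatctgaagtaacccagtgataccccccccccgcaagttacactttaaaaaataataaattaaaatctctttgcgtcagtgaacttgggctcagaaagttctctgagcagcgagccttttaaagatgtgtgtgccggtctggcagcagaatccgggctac
Abcc9: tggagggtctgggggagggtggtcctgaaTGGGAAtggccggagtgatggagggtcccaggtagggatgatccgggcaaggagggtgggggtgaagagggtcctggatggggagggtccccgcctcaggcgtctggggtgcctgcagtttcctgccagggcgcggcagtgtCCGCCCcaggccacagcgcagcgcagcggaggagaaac
Myl9: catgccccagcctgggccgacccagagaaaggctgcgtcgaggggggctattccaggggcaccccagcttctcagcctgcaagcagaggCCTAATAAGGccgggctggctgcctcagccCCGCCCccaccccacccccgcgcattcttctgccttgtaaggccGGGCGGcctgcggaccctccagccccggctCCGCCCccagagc
The Rgs5 stretch is chr1:169655251-169655500, that of Rgs4 chr1:169747643-169747892, that of Kcnj8 chr6:142571615-142571864, that of Abcc9 chr6:142702316-142702524 and that of Myl9 chr2:156775214-156775419.

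RefSeq promoters were matched by symbol for 8 of the 10 genes, and 250 bases upstream of each start were searched. The CArG box is the site bound by serum response factor in many smooth muscle genes. It was searched only in its exact form, CC, 6 bases of A or T, then GG. That form was found in Myl9 alone of the 8, at positions -161 to -152 from the RefSeq start. It was found in 1.47% of all 32851 promoters of that length. Forms 1 base off, such as CCCTATATGG in the Acta2 window, were not counted. The TATA box letters TATAAA were found in Rgs4 (-31 to -26) and, on both strands, in Vtn, against 12.4% of all promoters. The GC box letters GGGCGG were found in Myl9, Abcc9 and Mcam, against 32.7%, and the letters TGGGAA, part of the RBPJ site of Notch signalling, in Abcc9, Vtn and Acta2, against 21.6%. The GATA factor letters AGATAA were found in Rgs5, against 9.99%, and the E-box letters CACCTG in Vtn and Mcam, against 17.2%. In both neighbouring pairs the letters differed: none of the 6 motifs was shared by Rgs5 and Rgs4, and none matched in Kcnj8. These matches describe letters in a window and nothing about binding.

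Values are FPKM, fragments per kilobase of transcript scaled to the fragments mapped in a library, so that levels of different genes can be compared. At E15 the mural genes were low in controls, and their sum ran from 33.1 to 36.3 FPKM per library. Rgs4 was the highest, at 8.16, 10.6 and 11.8 FPKM in the 3 control libraries, followed by Rgs5 at 6.18, 6.16 and 7.38 FPKM and Myl9, the regulatory light chain of smooth muscle myosin, at 5.32, 5.67 and 3.28 FPKM. Vtn, which encodes the matrix and plasma protein vitronectin, stood at 3.04, 3.88 and 2.91 FPKM. Rgs4 lay above Rgs5 and Rgs5 above Myl9 in every control library, whereas the ranges of Myl9 and Vtn overlapped. Abcc9, Kcnj8, Pdgfrb, Acta2 and Tagln had control means between 1.09 and 1.84 FPKM, which is close to the filter of 1 FPKM.

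At P5 the order had changed. Rgs5 led the list at 65.8, 54.8 and 56.8 FPKM in the controls, with Myl9 next at 24.1, 20.1 and 23.4 FPKM and Vtn at 20.1, 16.6 and 21.1 FPKM. Pdgfrb reached 9.12, 8.63 and 8.56 FPKM, while Rgs4 stood at 8.41, 8.23 and 10.7 FPKM. The control ranges of Rgs5 and Myl9 did not overlap, those of Myl9 and Vtn and those of Rgs4 and Pdgfrb did, and Vtn lay above Rgs4. Acta2, the smooth muscle actin, stayed at 2.67, 2.63 and 2.14 FPKM, and Tagln, which encodes the actin-binding protein transgelin, at 1.69, 2.60 and 2.98 FPKM.

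At 12 weeks Vtn was far above the other genes, at 636, 1247 and 1476 FPKM in the controls, and made up 55.1 to 63.1% of the sum of the 10. Rgs5 followed at 179, 298 and 386 FPKM, then Myl9 at 104, 144 and 231 FPKM and Rgs4 at 76.2, 90.4 and 114 FPKM. Vtn did not overlap Rgs5, but from Rgs5 downwards each gene's control range overlapped that of the next. Pdgfrb stood at 44.9, 66.2 and 93.5 FPKM, Kcnj8 at 31.8, 39.7 and 80.7 FPKM and Abcc9 at 26.8, 30.0 and 46.6 FPKM. Mcam, an adhesion molecule of mural and endothelial cells, had 25.8 ± 5.03 FPKM (SD, n = 3), Acta2 22.5 ± 2.82 and Tagln 15.9 ± 6.23, so the classical smooth muscle genes were the lowest of the 10.

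**Figure D1:**
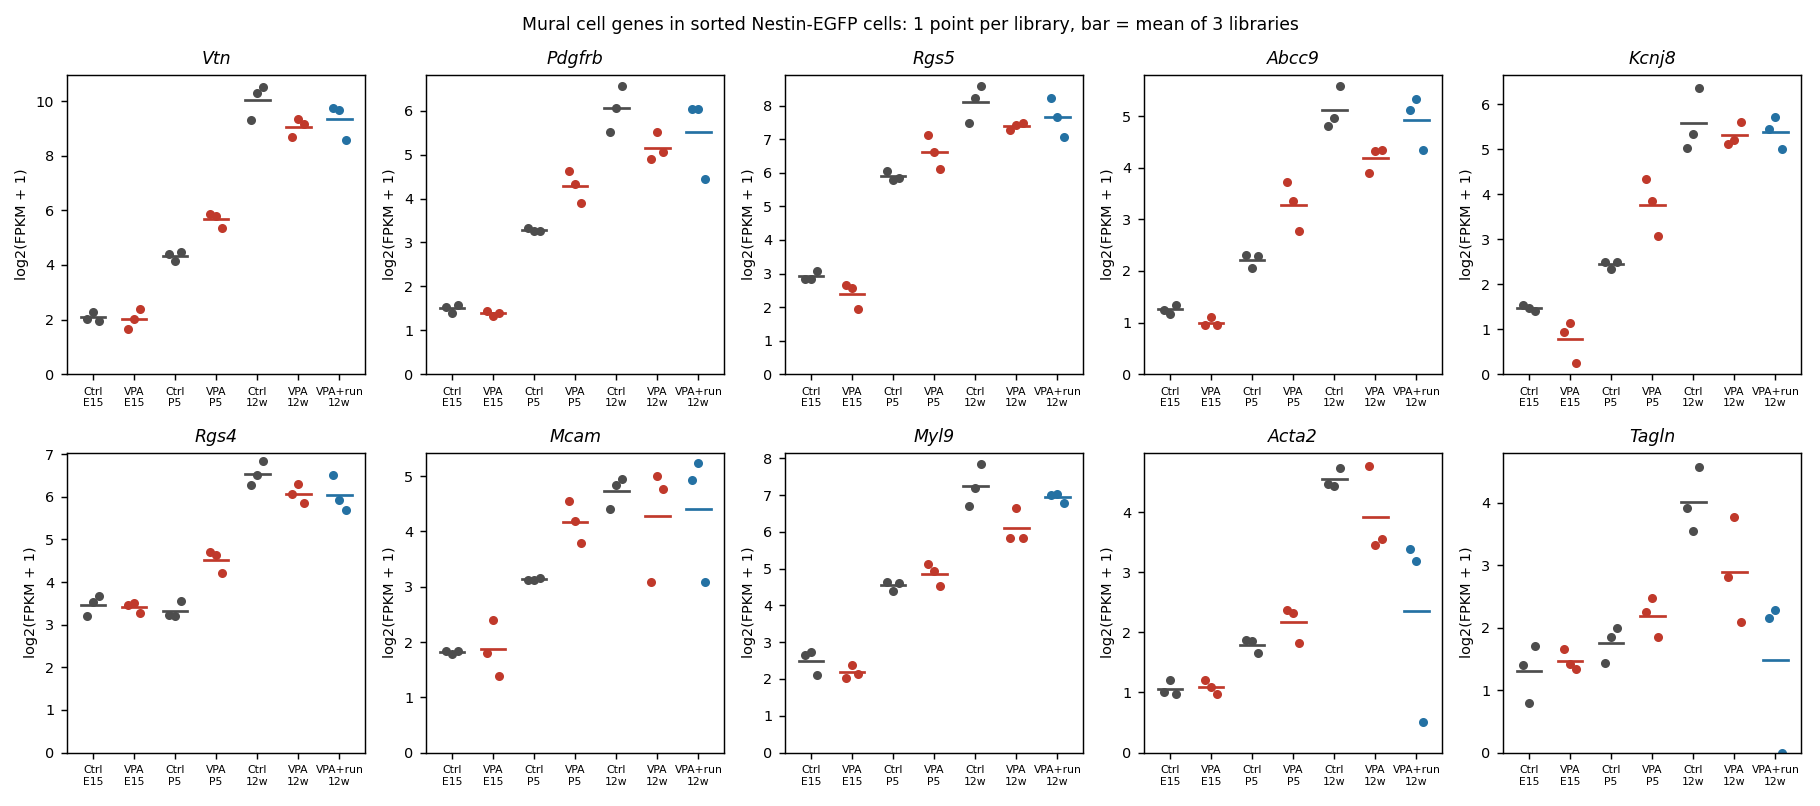
Level of each mural cell gene as log2(FPKM + 1) on the vertical axis in each of the 7 groups on the horizontal axis; each point is 1 library and each bar the mean of 3 libraries. Vtn is at 2.91 to 3.88 FPKM in E15 controls and at 636 to 1476 FPKM in 12-week controls, and Rgs4 alone has no higher mean at P5 than at E15 in controls.

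Between E15 forebrain and P5 dentate gyrus, controls differed in 5 of the 10 genes, each higher at P5, where 14.4% of the 14662 genes tested were called higher, 6.33% lower and 20.7% in either direction. Changes are given as differences of log2(FPKM + 1), which understate the change of low genes, and a gene was called at a limma p under 0.05 after Benjamini-Hochberg adjustment over all genes tested. Rgs5 rose by 2.99 (SE 0.301, limma adjusted p = 7.96e-07), Vtn by 2.24 (SE 0.317, adjusted p = 3.92e-05) and Myl9 by 2.05 (SE 0.266, adjusted p = 1.59e-05). Pdgfrb rose by 1.78 (SE 0.344, limma adjusted p = 0.000894) and Abcc9 by 0.96 (SE 0.274, adjusted p = 0.0167). The 2 groups did not overlap for 8 genes, each higher at P5, against 66.5% of all genes in either direction and 44.3% higher, the exceptions being Rgs4 and Tagln.

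Within both neighbouring pairs, 1 gene passed the test between E15 and P5 and the other did not. Rgs4 differed by -0.14 (95% confidence interval -0.585 to 0.306, limma adjusted p = 0.743), so that the Rgs5 to Rgs4 ratio went from 0.581 to 0.757 in E15 controls to 5.31 to 7.82 in P5 controls. The difference between Rgs5 and Rgs4 in their change was not tested. A list of 10 neuron genes summed to 715 to 806 FPKM in E15 controls and to 380 to 462 FPKM in P5 controls. The part of neurons in the Rgs4 values was not tested. Abcc9 and Kcnj8 changed by almost the same amount, as Kcnj8 differed by 0.97 (SE 0.339) with an adjusted p of 0.0523. Their ratio was 0.709 to 0.927 in E15 controls and 0.785 to 0.852 in P5 controls. Mcam differed by 1.31 (limma adjusted p = 0.0729), Acta2 by 0.74 (adjusted p = 0.398) and Tagln by 0.45 (adjusted p = 0.637). With a fit of the 2 control groups alone 8 genes were called, Kcnj8, Mcam and Acta2 in addition, but so were 60.9% of the 13189 genes tested there. The call of Abcc9 was lost without control library 1 or 3 at P5 or control library 2 at E15.

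Between P5 and 12 weeks, both in the dentate gyrus, all 10 genes rose in controls, where 7.26% of genes were called higher, 5.35% lower and 12.6% in either direction. The ranges of the 2 groups did not overlap for any of the 10, against 37.5% of all genes. Vtn rose most, by 5.71 (SE 0.317, limma adjusted p = 3.74e-09), and its mean was 58.1 times that of P5. Rgs4, which was not called between E15 and P5, rose by 3.22 (SE 0.211, limma adjusted p = 3.21e-08). Kcnj8 rose by 3.14 and Abcc9 by 2.89, and their ratio was 0.577 to 0.845 at 12 weeks. Pdgfrb rose by 2.76, Acta2 by 2.75, Myl9 by 2.70, Tagln by 2.26 and Rgs5 by 2.20, with limma adjusted p between 2.87e-06 and 0.00672. Mcam rose least, by 1.60 (limma adjusted p = 0.0416), and its call was lost with any 1 control library left out other than library 1 at 12 weeks, with adjusted p up to 0.113. Tagln also missed the threshold with a pseudocount of 0.1 (adjusted p = 0.0974). The median over the 10 was 2.76, against -0.04 over all genes tested.

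**Figure D2:**
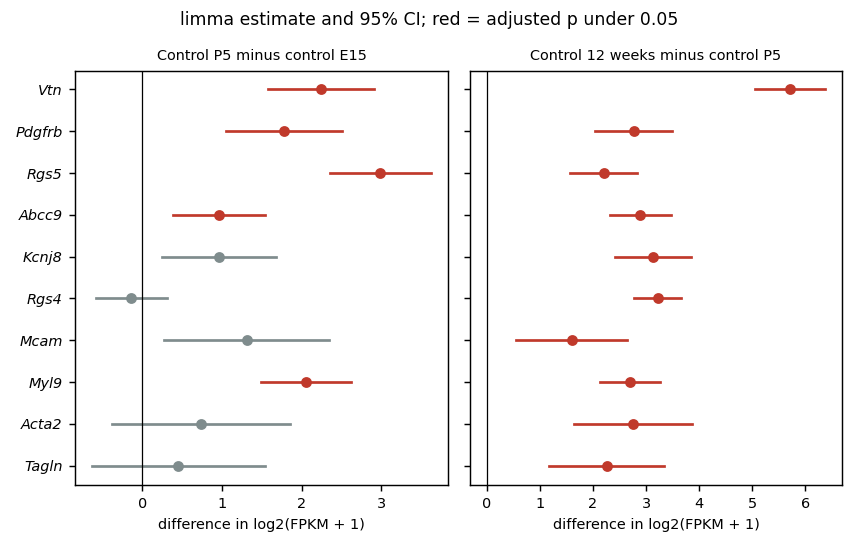
Difference in log2(FPKM + 1) between control groups for each mural cell gene, P5 minus E15 on the left and 12 weeks minus P5 on the right; points are limma estimates, lines 95% confidence intervals and red an adjusted p under 0.05. All 10 genes are right of 0 in the second contrast, with Vtn at 5.71, and Rgs4 is the only gene left of 0 in the first, at -0.14.

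The other pericyte genes on a list of 20 moved with them. From P5 to 12 weeks 19 of 20 were called higher, against 7.26% of all genes, and none lower, with a median of 2.69. Atp13a5, a transporter gene used as a marker of brain pericytes, was at 4.21, 2.71 and 2.77 FPKM at P5 and at 45.3, 69.8 and 81.3 FPKM at 12 weeks (limma adjusted p = 1.79e-06), and Slc6a20a, an amino acid transporter gene, rose by 4.59 (adjusted p = 2.93e-06). Cspg4, which encodes the NG2 proteoglycan of pericytes and also of oligodendrocyte precursors, rose by 2.64 (limma adjusted p = 5.76e-08). Zic1 differed by -0.04 (limma adjusted p = 0.965). From E15 to P5 6 of 20 were called higher, against 14.4% of all genes. Among them were Cspg4 at 2.80, Notch3, the Notch receptor of mural cells, at 1.63, and Atp13a5 at 2.01.

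Other smooth muscle genes were low at P5, with a sum of 20.7 to 25.8 FPKM per control library. Of 16 on the list 13 could be tested, of which 6 were higher at 12 weeks than at P5, against 7.26% of all genes. Among them were Mylk, which encodes the kinase that switches on smooth muscle myosin, at 2.57 (limma adjusted p = 9.38e-07), Casq2 at 4.17 and Tpm2, a tropomyosin, at 2.51. Myh11, the smooth muscle myosin heavy chain, went from 0.188, 0.304 and 0.223 FPKM to 3.89, 4.23 and 8.34 FPKM. Cnn1, Myocd and Actg2, which mark contractile smooth muscle, were at or near 0: Cnn1 was at most 0.323 FPKM in any library, Myocd at most 0.151 and Actg2 at most 0.462. Between E15 and P5 no smooth muscle gene was called by limma, while 2 of 13 had an unadjusted p under 0.05.

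Genes for the signals that recruit mural cells were also measured. Pdgfb, the ligand for the Pdgfrb receptor, stood at 0.469, 0.625 and 0.905 FPKM in P5 controls and at 11.1, 5.82 and 10.1 FPKM at 12 weeks (2.55, limma adjusted p = 0.000165). Of 22 such genes 9 were higher and 2 lower at 12 weeks than at P5, against 7.26% and 5.35% of all genes. Pdgfra, the sister receptor gene that marks oligodendrocyte precursors and fibroblasts, rose by 1.73, S1pr3, a sphingosine phosphate receptor of vessel walls, by 1.97, and Tgfb2 fell by 1.11. Between E15 and P5 9 were higher and 1, Tgfbr1, lower (-0.55, limma adjusted p = 0.00615), against 14.4% and 6.33% of all genes. Itgav, which encodes the alpha subunit of the vitronectin receptor, rose by 2.19 from E15 to P5 and by 0.93 from P5 to 12 weeks (limma adjusted p = 0.00845). All 4 tested genes of the vitronectin receptor list were higher at P5 than at E15, and Itgav alone was higher at 12 weeks than at P5.

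Of 14 other RGS genes 2 were higher at 12 weeks than at P5 and none lower, Rgs1 at 2.08 and Rgs3 at 0.93, near the 12.6% of all genes called, and the list median was 0.05. Rgs20 rose by 2.61 between E15 and P5 (limma adjusted p = 4.47e-07). Kcnj11 and Abcc8, the genes of the ATP-sensitive potassium channel of neurons and pancreatic beta cells, had estimates of the opposite sign to those of their vascular relatives Kcnj8 and Abcc9. Kcnj11 was at 27.5, 29.1 and 31.3 FPKM in E15 controls and at 13.6, 13.4 and 12.8 FPKM at P5 (-1.09, limma adjusted p = 0.0196), and differed by -0.04 between P5 and 12 weeks (adjusted p = 0.957). Abcc8 differed by -1.01 (adjusted p = 0.066) and -0.86 (adjusted p = 0.151).

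Markers of endothelial cells, which line the vessels that mural cells wrap, moved with the 10 genes between P5 and 12 weeks. Of 15 endothelial genes 14 were called higher, where 7.26% of all genes were called higher and 5.35% lower. The sum of the list went from 25.1 to 31.3 FPKM per P5 control library to 457 to 700 FPKM at 12 weeks. Cldn5, a tight junction gene, was at 1.34, 1.79 and 3.50 FPKM at P5 and at 68.1, 205 and 97.4 FPKM at 12 weeks (limma adjusted p = 1.89e-07). Of 12 fibroblast genes 6 were higher, of 15 microglia and macrophage genes 4 were higher, and of 6 tested erythroid genes 3 were lower. Between E15 and P5 all 15 endothelial estimates were positive, but none was called by limma, with 0 of 15 at an unadjusted p under 0.05. The groups did not overlap for 9 of 15, against 66.5% of all genes in either direction and 44.3% higher. The difference between the lists was not tested. The part of these cells in the mural values was not tested.

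**Figure D3:**
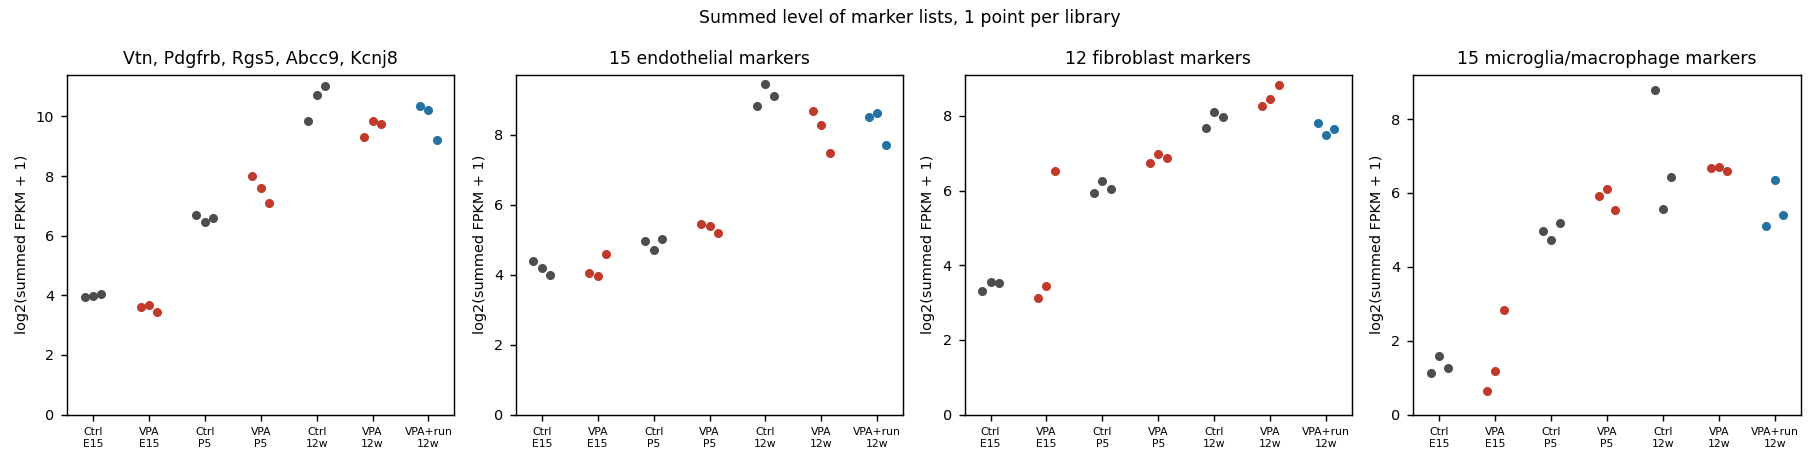
Summed level of 4 marker lists as log2(summed FPKM + 1) on the vertical axis by group on the horizontal axis, 1 point per library. The sum of Vtn, Pdgfrb, Rgs5, Abcc9 and Kcnj8 is 87.2 to 104 FPKM in P5 controls and 136 to 253 FPKM in P5 VPA libraries, and the endothelial sum is 457 to 700 FPKM in 12-week controls and 178 to 410 FPKM in 12-week VPA libraries.

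At E15, the day after the last VPA dose, none of the 10 genes was called, with 2 at an unadjusted p under 0.05, and 0.0405% of 12345 genes tested were called. Rgs5, Abcc9 and Kcnj8 were lower in every VPA library than in any control library, 3 of 10 against 17.5% of all genes in either direction, 9.32% lower and 8.19% higher. Rgs5 was at 5.29, 4.96 and 2.85 FPKM with VPA against 6.18 to 7.38 FPKM in controls, a difference of -0.53 (SE 0.196, limma adjusted p = 0.452). Kcnj8 was at 0.923, 1.20 and 0.181 FPKM against 1.66 to 1.90 FPKM, a difference of -0.70 (SE 0.237, limma adjusted p = 0.44). Abcc9 was at 0.925, 1.14 and 0.935 FPKM against 1.26 to 1.54 FPKM, a difference of -0.25 (adjusted p = 0.515). The lowest Rgs5 and Kcnj8 values both came from VPA library 3, which also held the choroid plexus gene Ttr at 9662 FPKM, where the other E15 libraries had at most 131 FPKM. Without that library the estimates were -0.30 for Rgs5 and -0.43 for Kcnj8 (limma adjusted p = 0.412 and 0.371). The remaining 7 genes differed by between -0.32 and 0.17, and the median of the 10 was -0.09. The Abcc9 to Kcnj8 ratio was 0.955 to 5.15 with VPA and 0.709 to 0.927 in controls, with Kcnj8 as low as 0.181 FPKM. The Rgs5 to Rgs4 ratio was 0.328 to 0.524 with VPA and 0.581 to 0.757 in controls. For both, an exact two-sided permutation test of 3 against 3 libraries gave p = 0.1, its smallest possible value (adjusted p = 0.286).

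At P5, 4 of the 10 genes were higher in VPA libraries and none lower, where 0.9% of 13328 genes were called higher and 2.24% in either direction. All 10 estimates were positive, with a median of 1.02 against -0.00 over all genes. Vtn was at 57.3, 54.0 and 39.7 FPKM with VPA against 20.1, 16.6 and 21.1 FPKM in controls, and rose by 1.33 (SE 0.148, limma adjusted p = 0.0145), a mean 2.61 times that of controls. Rgs4 was at 24.9, 23.7 and 17.6 FPKM against 8.41, 8.23 and 10.7 FPKM, and rose by 1.18 (SE 0.147, limma adjusted p = 0.0195). In both genes each VPA library lay above each control library.

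Mcam was at 22.4, 17.2 and 12.9 FPKM with VPA and at 7.66, 7.75 and 7.89 FPKM in controls, and rose by 1.05 (SE 0.171, limma adjusted p = 0.0366). Pdgfrb, the receptor through which pericytes are recruited, was at 23.7, 19.1 and 14.0 FPKM with VPA against 9.12, 8.63 and 8.56 FPKM, and rose by 0.9998 (SE 0.166, limma adjusted p = 0.0381). The 2 groups were apart in these genes too, with VPA libraries spread more widely than controls. The 2 channel genes had estimates as large but missed the threshold: Kcnj8 differed by 1.31 (SE 0.284, limma adjusted p = 0.0634), at 19.1, 13.5 and 7.39 FPKM against 4.64, 4.02 and 4.64 FPKM. Abcc9 differed by 1.07 (SE 0.224, limma adjusted p = 0.0596), at 12.2, 9.29 and 5.85 FPKM against 3.95, 3.16 and 3.89 FPKM. Rgs5 differed by 0.73 (SE 0.229, limma adjusted p = 0.121), at 140, 97.6 and 69.0 FPKM against 65.8, 54.8 and 56.8 FPKM. In all, groups did not overlap for 7 of the 10 genes, against 29.4% of all genes.

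The contractile genes had smaller estimates, and their groups overlapped. Tagln differed by 0.44 (limma adjusted p = 0.241), Acta2 by 0.38 (adjusted p = 0.217) and Myl9 by 0.31 (95% confidence interval -0.0527 to 0.669, adjusted p = 0.272). Myl9 was at 34.1, 29.5 and 21.9 FPKM with VPA and at 24.1, 20.1 and 23.4 FPKM in controls. Relative to Pdgfrb in the same library, Myl9 was lower with VPA, at 1.44 to 1.57 against 2.33 to 2.74, and so was Acta2, at 0.177 to 0.209 against 0.250 to 0.304. These ratios were chosen after the values were seen. Over 20 such comparisons of 5 ratios, an exact two-sided permutation test of 3 against 3 libraries cannot go below p = 0.1, which both reached (adjusted p = 0.286).

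Srf encodes the transcription factor that binds CArG boxes. It was at 20.05, 18.5 and 18.0 FPKM with VPA at P5 against 30.8, 33.0 and 34.3 FPKM in controls. The fall was 0.77 (SE 0.0643, limma adjusted p = 0.00485). The Srf cofactor gene Myocd was at 0 in all VPA libraries and at most 0.0538 FPKM in P5 controls. Srf and the cofactor genes Mkl1 and Mkl2, the 3 of this list tested at P5, had negative estimates. Their groups did not overlap, against 29.4% of all genes, and Srf alone was called. At E15 the estimate of Srf was 0.69 with VPA (limma adjusted p = 0.171). Its VPA difference was lower at P5 than at E15 by 1.45 (limma adjusted p = 0.00705). In the P5 comparison the estimates of Myl9, Acta2 and Tagln were positive and not called. A link between Srf and these genes was not tested.

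Among the other pericyte genes at P5, 19 of 20 could be tested, 18 estimates were positive and 4 were called higher with VPA, against 0.9% of all genes. Lamc3, a laminin chain gene, was at 1.91, 2.03 and 1.85 FPKM against 0.710, 0.638 and 0.807 FPKM (0.77, limma adjusted p = 0.0251). Slc6a20a rose by 1.23 (adjusted p = 0.0272), Gja4, which encodes the gap junction protein connexin 37, by 0.92 (adjusted p = 0.0356) and Cd248, the surface protein endosialin, by 0.92 (limma adjusted p = 0.0418). The list median was 0.80. None of the 5 tested smooth muscle genes, 17 recruitment genes, 13 other RGS genes, 4 vitronectin receptor genes or 2 other channel genes was called by limma, while 2, 8, 3, 0 and 1 of them had an unadjusted p under 0.05. The largest of these lists by count held Tgfb1 at 0.68 (adjusted p = 0.055) and Ednra, an endothelin receptor gene, at 0.78 (adjusted p = 0.0854).

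Markers of other cells moved at P5 as well, where 0.9% of all genes were called higher and 1.34% lower. The endothelial sum was 35.8 to 43.0 FPKM with VPA and 25.1 to 31.3 FPKM in controls, although none of the 6 tested endothelial genes was called. Of the 6 estimates 5 were positive and 1 negative, and all 6 genes had an unadjusted limma p under 0.05. The fibroblast sum was 105 to 125 FPKM against 59.7 to 75.3 FPKM, with 4 of 9 genes called higher, among them Igf2, Col1a2 and Foxc1. The microglia and macrophage sum was 45.6 to 67.4 FPKM against 25.5 to 35.2 FPKM, with 2 of 12 called higher. The erythroid sum was 152 to 688 FPKM against 1309 to 1736 FPKM, with 2 of 6 called lower. The neural stem cell genes, which stand for the labelled cell type, had the opposite sign to the mural genes: 10 of 10 estimates were negative, with a median of -0.31. The groups did not overlap for 6 of 10, against 29.4% of all genes in either direction and 15.6% lower. Among the stem cell genes Sox2 was called lower (-0.36, limma adjusted p = 0.0462), and their sum was 2634 to 2730 FPKM against 2726 to 3163 FPKM. Their part in the mural values was not tested.

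The P5 groups also differed in sex-linked transcripts. The Y-linked gene Ddx3y was at 0 and 0.0129 FPKM in control libraries 1 and 2, at 22.0 FPKM in control library 3 and at 19.1 to 20.8 FPKM in the 3 VPA libraries, and Xist was at 317 and 308 FPKM in control libraries 1 and 2. Against control library 3 alone, all 3 VPA libraries were higher in 8 of the 10 genes, as they were in 28.8% of all genes tested. Vtn was at 21.1 FPKM in that library and Rgs4 at 10.7 FPKM, both below the lowest VPA library. With the Ddx3y level as a covariate, chosen after seeing the data, the estimates were 1.21 for Vtn, 0.98 for Rgs4, 1.03 for Mcam and 1.03 for Pdgfrb, and none of the 4 passed (limma adjusted p between 0.229 and 0.289). In that fit 0.075% of all genes were called.

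The P5 calls depended on single libraries. All 4 were lost without VPA library 2, without control library 1 or without control library 2, where limma adjusted p lay between 0.0625 and 0.135. In these fits 0.243%, 0.174% and 0.136% of all genes were called, against 2.24% in the main fit. Pdgfrb was also lost without control library 3 (limma adjusted p = 0.052), where 3.78% of all genes were called. Without VPA library 3, the lowest VPA library in all 10 genes, Abcc9 (adjusted p = 0.0177) and Kcnj8 (0.0112) were called as well, so that 6 were, with 0.813% of all genes called. The replicate number as a block left Vtn alone (limma adjusted p = 0.0481) and 0.525% of all genes. No filter on low values left none, with Vtn at 0.0513 and 0.187% of all genes called. In the fit of all 21 libraries Rgs4 alone was called (limma adjusted p = 0.0306, Vtn 0.336), with 0.102% of all genes. The smallest estimate of the 4 with a library left out was 0.83, for Pdgfrb without VPA library 1.

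**Figure D4:**
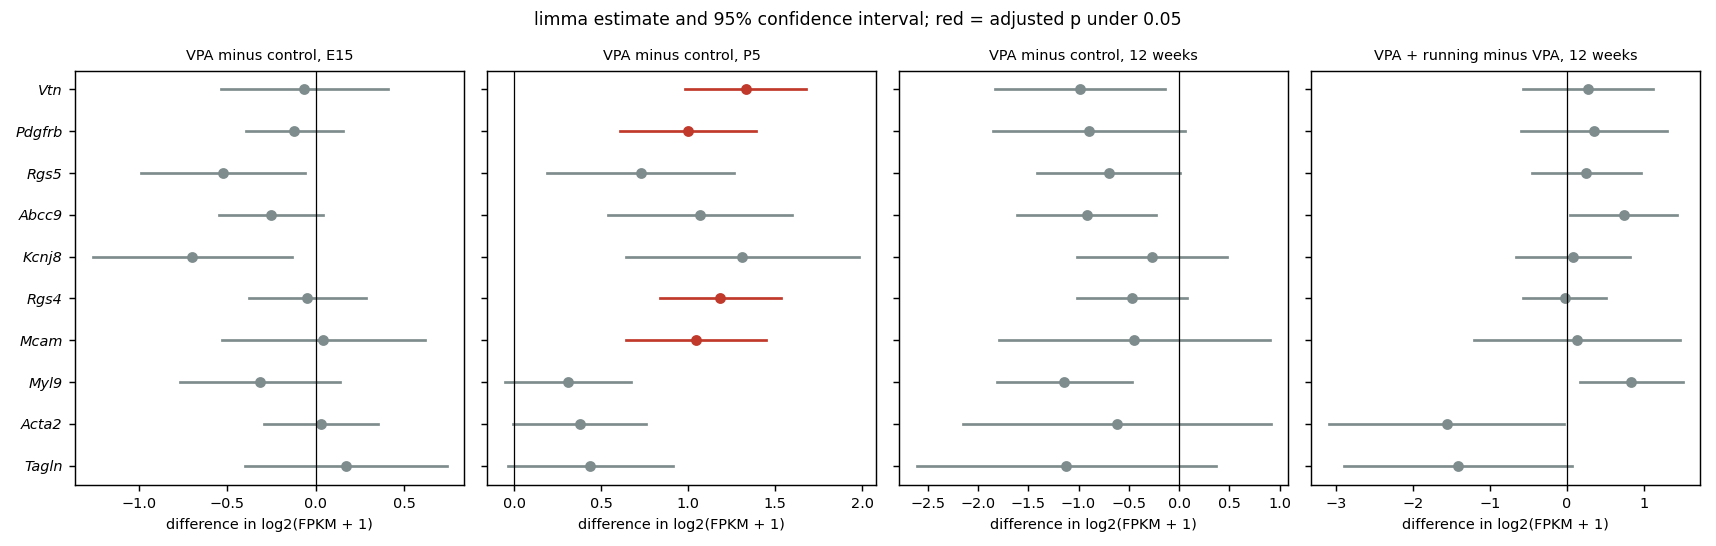
Difference in log2(FPKM + 1) for each mural cell gene in 4 comparisons within an age; points are limma estimates, lines 95% confidence intervals, red an adjusted p under 0.05, and each panel has its own horizontal scale. At P5 all 10 estimates are above 0 and 4 are red, and in 12-week VPA against control all 10 are below 0 and none is red.

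At 12 weeks, none of the 10 genes was called between sedentary VPA and control libraries, and 0% of 13847 genes were called, but 3 of the 10 had an unadjusted p under 0.05. All 10 estimates were negative, with a median of -0.80 against -0.01 over all genes. Myl9 was at 56.3, 99.7 and 56.2 FPKM with VPA against 104, 144 and 231 FPKM in controls, a difference of -1.14 (SE 0.302, limma adjusted p = 0.557). Abcc9 was at 13.9, 19.1 and 19.2 FPKM against 26.8, 30.0 and 46.6 FPKM, a difference of -0.92 (SE 0.313, limma adjusted p = 0.629). In these genes the 2 groups were apart, 2 of 10 against 15.5% of all genes in either direction, 7.63% lower and 7.83% higher. In a fit of all 21 libraries Myl9 was called lower (limma adjusted p = 0.0262), along with changes in either direction in 3.64% of all genes.

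Vtn was at 406, 654 and 571 FPKM with VPA against 636, 1247 and 1476 FPKM, a difference of -0.98 (95% confidence interval -1.83 to -0.136, limma adjusted p = 0.711). Only the highest VPA library reached the lowest control. Pdgfrb was at 28.6, 44.9 and 32.2 FPKM against 44.9, 66.2 and 93.5 FPKM (-0.90), and Rgs5 at 154, 172 and 180 FPKM against 179, 298 and 386 FPKM (-0.70). Control library 3 was the highest control in all 10 genes, and without it the estimate of Kcnj8 went from -0.27 to 0.12. Kcnj8, at 33.5, 35.9 and 47.7 FPKM against 31.8, 39.7 and 80.7 FPKM, overlapped across its range, unlike its channel partner Abcc9. Their ratio was 0.403 to 0.532 with VPA and 0.577 to 0.845 in controls (exact two-sided permutation p = 0.1, the smallest 3 against 3 libraries allow, adjusted p = 0.286). At E15 this ratio was apart in the other direction, at 0.955 to 5.15 with VPA and 0.709 to 0.927 in controls, and at P5 the groups overlapped.

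The further pericyte genes behaved alike in sign at 12 weeks: 19 of 20 estimates were negative, 0 were called and 0 had an unadjusted p under 0.05. Cspg4 was the exception at 0.45 (limma adjusted p = 0.772). Of 15 endothelial genes 14 had negative estimates, with sums of 178 to 410 FPKM with VPA against 457 to 700 FPKM in controls, and the sum of 6 oligodendrocyte precursor genes, which include Cspg4, was 1681 to 2656 FPKM against 1001 to 1533 FPKM. Fibroblast genes had 10 of 11 negative estimates with a median of -0.80, although their sum, which includes Pdgfra, was higher with VPA, at 309 to 452 FPKM against 205 to 274 FPKM. Of 10 neural stem cell genes 8 had negative estimates, with a median of -0.54 and 4 at an unadjusted p under 0.05, and none of these lists had a gene called. The part of these cells in the mural values was not tested.

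Running VPA mice had no gene called against sedentary VPA mice, among the 10 (3 at an unadjusted p under 0.05) or among all 13847 tested (0%). Myl9 was at 128, 131 and 110 FPKM with running against 56.3, 99.7 and 56.2 FPKM, a difference of 0.84 (SE 0.302, limma adjusted p = 0.337). Abcc9 was at 33.7, 39.0 and 19.4 FPKM against 13.9, 19.1 and 19.2 FPKM, a difference of 0.74 (SE 0.313, limma adjusted p = 0.409). Acta2 went the other way, at 9.52, 8.09 and 0.419 FPKM against 26.4, 9.96 and 10.8 FPKM, a difference of -1.57 (SE 0.69, limma adjusted p = 0.428). These 3 were the genes whose groups did not overlap, against 15.5% of all genes in either direction, 6.98% higher and 8.48% lower. Abcc9 was apart only by the margin between 19.2 and 19.4 FPKM, and Acta2 by that between 9.52 and 9.96 FPKM.

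Tagln was at 3.48, 3.87 and 0 FPKM with running against 6.03, 12.7 and 3.27 FPKM (-1.41, limma adjusted p = 0.458). The Acta2 and Tagln estimates were -0.64 and -0.67 at their smallest with 1 library left out. The third running library was the lowest of its group in all 10 genes, and it also had the fewest genes above 0 of all libraries, 12019, and the largest share of summed FPKM in small RNA genes, 27.7%. Vtn, at 850, 821 and 381 FPKM, Rgs5, Pdgfrb, Kcnj8 and Mcam had estimates between 0.08 and 0.35, and Rgs4 one of -0.03, all with groups that overlapped. Endothelial sums were 208 to 396 FPKM with running and 178 to 410 FPKM without. The 6 oligodendrocyte precursor genes were all lower in every running library than in any sedentary one, against 8.48% of all genes. Their sums were 824 to 1124 FPKM against 1681 to 2656 FPKM. The median estimate was -1.22, with all 6 at an unadjusted p under 0.05 and 0 called by limma. Of 10 neural stem cell genes 9 had positive estimates, with a median of 0.47, 4 at an unadjusted p under 0.05 and 0 called. Their part in the mural values was not tested.

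Among the adult libraries the Abcc9 to Kcnj8 ratio was 0.624 to 0.787 with running, above the 0.403 to 0.532 of sedentary VPA libraries. The Acta2 to Pdgfrb ratio was 0.0203 to 0.146 with running and 0.222 to 0.921 in sedentary VPA libraries. For both, the exact two-sided permutation test gave p = 0.1, its smallest possible value, and an adjusted p of 0.286. The sedentary VPA libraries enter both this comparison and the one with controls, so the 2 are not independent.

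**Figure D5:**
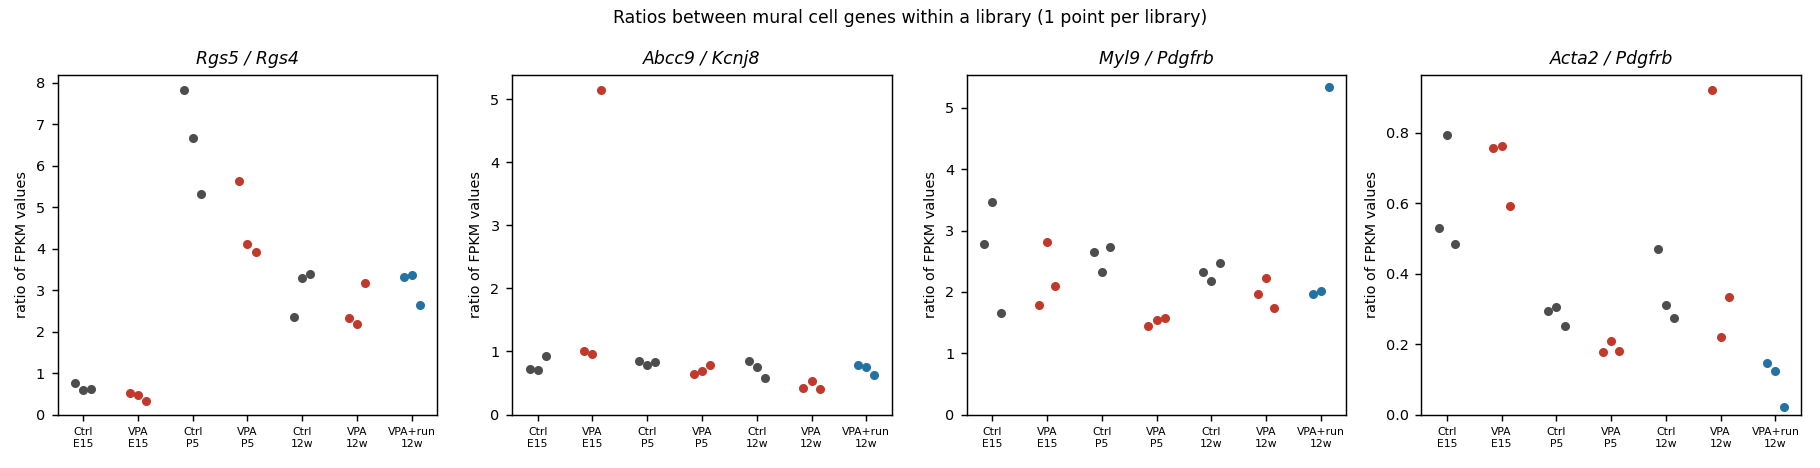
Ratio of FPKM values of 2 mural cell genes within a library on the vertical axis by group on the horizontal axis, 1 point per library. The Rgs5 to Rgs4 ratio is 0.581 to 0.757 in E15 controls and 5.31 to 7.82 in P5 controls, the Abcc9 to Kcnj8 ratio is 5.15 in the E15 VPA library whose Kcnj8 level is 0.181 FPKM, and the Myl9 to Pdgfrb ratio at P5 is 1.44 to 1.57 with VPA against 2.33 to 2.74.

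The VPA difference itself was compared between ages in a fit of all 21 libraries. Between P5 and 12 weeks it was lower at 12 weeks for 3 of the 10 genes, where 0.136% of 14662 genes were called lower, 0.252% higher and 0.389% in either direction: Vtn by 2.31 (SE 0.448, limma adjusted p = 0.0305), Abcc9 by 1.99 (SE 0.387, adjusted p = 0.0306) and Rgs4 by 1.65 (SE 0.299, adjusted p = 0.022). All 10 estimates were negative, with a median of -1.57. The comparison holds the same libraries as the 2 within-age comparisons. With 1 library left out, Vtn was called only without control library 1 or VPA library 2 at 12 weeks, and Abcc9 only without either of those, control library 2 at 12 weeks or VPA library 3 at P5. Rgs4 was lost without control library 3 or VPA library 3 at 12 weeks, or library 1 or 2 of either group at P5, with limma adjusted p up to 0.0926. The replicate block ended the call of Abcc9 (limma adjusted p = 0.0592), and none of the 3 was called with libraries weighted by the spread of their group (limma adjusted p between 0.153 and 0.22), an alternative added after seeing the data. The median SD of log2 values over the genes kept was 0.0928 to 0.0939 in the P5 groups and 0.337 to 0.48 in the 12-week groups, and 1 pooled estimate was used for all of them in this fit. Over the 10 members the median SD was 0.136 in P5 controls, 0.338 in P5 VPA libraries and 0.341 to 0.614 in the 12-week groups.

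Between E15 and P5 the VPA difference was called for none of the 10, with 6 at an unadjusted p under 0.05 and 0.0955% of genes called, 0.0136% higher and 0.0818% lower. Kcnj8 had the largest estimate, 2.01 (SE 0.48, limma adjusted p = 0.356). In a fit of the 4 groups concerned 5 genes were called higher, Vtn, Pdgfrb, Abcc9, Kcnj8 and Rgs4 (limma adjusted p between 0.0332 and 0.0494), where 1.14% of all genes were called. With weights by group spread Rgs5 was called in addition (limma adjusted p = 0.0269), where 2.99% were.

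Other genes were ranked by how closely they followed the mural genes over the 21 libraries, from 13465 candidates. As a description, the mean standardised profile of Vtn, Pdgfrb, Rgs5, Abcc9 and Kcnj8 was most like that of Atp13a5 (Pearson r = 0.994), Vstm4 (0.991), Sept4 (0.99), Higd1b (0.988), Tns2 (0.986), Dock6 (0.984), Pde8b (0.983), Cald1 (0.982), S1pr3 (0.982) and Heyl (0.981). The libraries fall into 3 ages, which set most of these values. After subtracting the mean of each age, Pear1 (0.931), Plxdc1 (0.918), P2ry14 (0.918) and Atp13a5 (0.908) were the closest. Among the 10 members, r after this subtraction was 0.847 for Rgs4, 0.789 for Mcam and 0.725 for Myl9, but 0.405 for Acta2 and 0.472 for Tagln, which followed the pericyte profile least.

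The profile of Myl9, Acta2 and Tagln had other neighbours: Eng (0.977), Tmem109 (0.975), Esam (0.97), Colec12 (0.969), Rcsd1 (0.965), Cp (0.965), Des (0.961), Tbx2 (0.959), Myh11 (0.958) and Arhgap6 (0.954). Eng and Esam are endothelial genes, and Des and Myh11 encode the filament protein and the myosin of smooth muscle. With age means subtracted Myh11 came first (0.959). Tagln (0.972) and Acta2 (0.916) were close to this profile, which they are part of, and Myl9, also part of it, had 0.358, below its 0.725 with the pericyte profile. Running library 3, with the fewest genes above 0, had Tagln at 0 and Acta2 at 0.419 FPKM. Colec12, Rcsd1 and Arhgap6 were each at 0 FPKM in their lowest running library. The part of single libraries in these r values, and in those of Acta2 and Tagln with the pericyte profile, was not tested.

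Between 16116 and 16734 genes were above 0 in E15 libraries, 17251 to 17601 at P5 and 12019 to 15210 at 12 weeks. Nes, the gene whose reporter was sorted, was between 7.86 and 20.1 FPKM in every library. The labelled cell type is neural stem/progenitor cells, and 10 neural stem cell genes summed to 2726 to 3163 FPKM in P5 controls beside 128 to 148 FPKM for the 10 mural genes. In 12-week controls the stem cell genes summed to 1039 to 2148 FPKM and the mural genes to 1154 to 2507 FPKM. Abcc9 overlaps an antisense gene, 5330439B14Rik, by 11868 bases, Tagln overlaps Pcsk7 by 108 bases and the antisense gene Gm48529 by 3627 bases, and Mcam overlaps Gm10687 by 17 bases. With no strand stated, reads from both could not be told apart.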

How the data were processed

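Polyadenylated RNA of FACS-sorted Nestin-EGFP cells was sequenced as 21 libraries. The tools named in the submitters' processing notes are Cufflinks, Cuffdiff, TopHat and Bowtie2, with build mm10; their versions are not given in the sources used here. Values as deposited are FPKM, named per the file headers at 12 weeks and inferred from the values at E15 and P5, whose headers name the sample alone. Read counts were not analysed, so total depth is unknown (relative depth was estimated from low values) and the number of libraries limits the precision. Values were not rescaled.

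Genes at 1 FPKM or more in at least 3 libraries of a fit were tested on log2(FPKM + 1) with limma 3.58.1 (R 4.3.3, moderated test with a trend), after a check on simulated data, with Benjamini-Hochberg adjustment over all genes tested and a threshold of 0.05. E15 and P5 had fits of 6 libraries, 12 weeks 1 fit of 9, and comparisons between ages 1 fit of 21. Every member is reported, and of each other list up to 3 genes per direction with the smallest p; Cd248, Zic1, Myh11, Cnn1, Myocd and Actg2 were singled out after their values were seen. Positions are from GENCODE M21 and promoters from RefSeq. The members and lists were chosen with earlier results of these data known. Alternatives were median-of-ratios scaling, a pseudocount of 0.1, a 5 FPKM filter or none, a replicate block, other sets of groups in the fit, single libraries left out and, added after seeing the data, a Ddx3y covariate at P5 and weights by group spread. At E15 same-numbered control and VPA libraries deviated together (r = 0.126, 0.106 and 0.161), so their numbers may pair them, although no label says so. No 2 libraries held identical values.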

Additional observations from a re-analysis of the deposited data

Results flagged for a closer look

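The VPA difference itself differed between P5 and 12 weeks for 3 mural genes by the interaction term in limma: -2.31 on the log2 scale for Vtn, -1.99 for Abcc9 and -1.65 for Rgs4. At P5 the estimates were 1.33, 1.07 and 1.18, and at 12 weeks -0.98, -0.92 and -0.47. All VPA libraries were above all control libraries in these 3 genes at P5, and at 12 weeks the groups were apart for Abcc9 alone. With 1 library left out, the interaction call was lost in 10 of 12 fits for Vtn, 8 for Abcc9 and 6 for Rgs4. None of the 3 was called with libraries weighted by the spread of their group.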

How the results depend on the processing

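Total read numbers are unknown from FPKM. Low values gave a depth relative to control library 1 of the same age of 0.964 to 1.41 at E15 and 0.744 to 1.14 at P5, each resting on 200 to 406 genes. At 12 weeks the estimates rested on 6 to 16 genes and were not used. The 3 libraries per group limit precision, and the 12-week groups spread most. Of the counts of calls under alternatives, 280 stayed within 1.5 times the main count and 68 moved. For single members, 1039 kept direction and side of the threshold, 66 missed it, 26 passed it and 19 reversed. The 1039 include members called in neither fit. Where a count moved, the cause was not tested.

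At E15, 5 genes were called, 3 without a filter, 3 in the fit of all 21 libraries and 0 to 11 with 1 library left out. At P5, 4 members were higher: 0 without a filter, 1 with the replicate block, 1 with all 21 libraries, 0 with Ddx3y as a covariate, and 0 to 6 with 1 library left out. The same settings moved 298 genes to 36, 70, 15, 10, and 18 to 543. At 12 weeks, VPA against control went from 0 members lower to 1 and from 0 genes to 533 with all 21 libraries, and to 0 to 1 genes with 1 library left out. For running, 0 genes became 3 with a pseudocount of 0.1, 1 without a filter, 6 with the 5 FPKM filter, 1698 with all 21 libraries and 0 to 37 with 1 library left out.

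Control P5 against E15 went from 5 members higher to 8 and from 3038 genes to 8033 with the groups compared alone, to 8 and 8928 with weights by group spread, and to 4 to 5 members and 2271 to 2552 genes with 1 library left out. Control 12 weeks against P5 ranged from 9 to 10 members and 1139 to 2288 genes with 1 library left out. For the VPA difference between E15 and P5, 0 members and 14 genes became 30 genes without a filter, 5 members and 157 genes with the groups compared alone, 6 and 439 with weights, and 8 to 22 genes with 1 library left out. For that between P5 and 12 weeks, 3 members lower and 57 genes became 0 and 6 with weights, and 0 to 6 and 10 to 224 with 1 library left out.

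The 19 reversals were in members that were not called, with 1 library left out. At E15 Vtn ranged from -0.25 to 0.11, Rgs4 from -0.18 to 0.055, Mcam from -0.23 to 0.28, Acta2 from -0.028 to 0.10 and Tagln from -0.082 to 0.37. For VPA at 12 weeks Mcam ranged from -0.81 to 0.16 and Kcnj8 from -0.54 to 0.12. For running Rgs5 ranged from -0.031 to 0.55, Mcam from -0.47 to 0.80, Kcnj8 from -0.079 to 0.28 and Rgs4 from -0.26 to 0.15.

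Over 18 same-numbered pairs, E15 included, r ran from -0.046 to 0.161, and 9 of 18 correlated best with their own number. For P5 control and VPA libraries r was 0.047, 0.063 and -0.042, and 2 correlated best with their own number. Whether the numbers pair libraries outside E15 cannot be told from these values. Apart from the P5 counts above and the call of Abcc9 between P5 and 12 weeks, where 2 members and 40 genes were left, the replicate block ended no call of a member.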
